A study of Mus musculus with 14 samples.

Results

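The genes of the bone morphogenetic protein (BMP) and transforming growth factor beta (TGF-beta) pathway were followed in bone marrow adipose tissue (BMAT), the fatty marrow of the distal tibia. They were chosen by symbol from the 23441 genes of the deposited count matrix: the Bmp, Gdf, Inha, Inhba, Inhbb and Tgfb ligands, the Bmpr, Acvr and Tgfbr receptors, the Smad genes, the latent TGF-beta binding proteins (Ltbp), and the secreted antagonists Nog, Grem1, Chrd, Fst and Fstl3. The rule found 50 genes, of which 49 passed the filter on low counts. The gene left out by that filter was Bmpr1b, a type I BMP receptor, with 24 counts over all 14 samples and 0 to 7 in any sample.

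All mice were males of the mixed C57BL6/SJL background, 24 weeks of age. BMAd-Pnpla2-/- mice lacked Pnpla2, the gene of adipose triglyceride lipase, in bone marrow adipocytes (BMAds), and BMAd-Pnpla2+/+ mice, the controls, kept it. Mice were fed ad libitum (AL) or were placed on caloric restriction (CR), 30% below their own measured intake, for 6 weeks. There were 4 samples of BMAd-Pnpla2+/+ AL, 4 of BMAd-Pnpla2+/+ CR, 3 of BMAd-Pnpla2-/- AL and 3 of BMAd-Pnpla2-/- CR, and each sample was made of the marrow plugs of a pair of mice. In this model, FLPo driven by the Osterix promoter switches on a Cre placed in the Adipoq gene, and the controls carried both alleles as well. The study names as limits of the model a lowered level of circulating adiponectin, weak Cre expression and recombination that is incomplete in young mice. Since plugs hold many cell types, a lower RNA level from fewer cells of a type and from less RNA per cell cannot be told apart.

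BMPs, growth and differentiation factors (GDFs), activins and TGF-betas are secreted ligands that bring type I and type II receptor kinases together on the cell surface. The type I receptor then phosphorylates receptor-activated SMAD proteins, those of the BMP branch or those of the TGF-beta branch, which enter the nucleus with SMAD4. In bone marrow, BMPs are best known for osteoblast and adipocyte differentiation, and TGF-beta, stored in the matrix in a latent form, for the coupling of bone resorption to formation and for the quiescence of hematopoietic stem cells.

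SMAD proteins bind short motifs, and 4 promoters are shown so that those of members that moved can be set side by side: Acvr1c had the highest log2 fold change with CR among the receptors, and Chrd among the antagonists, in BMAd-Pnpla2+/+ mice, Tgfb1 was the most abundant member and fell, and Smad6 is a textbook SMAD target. Each run is 300 bases of RefSeq sequence, GRCm38.p6, written 5′ to 3′ on the gene's strand, from 250 bases before the transcription start to 50 after it. Capitals mark matches to CAGAC (the SMAD box), GGCGCC (a GC-rich SMAD motif) or GTCTAGAC (a palindromic SMAD motif), searched on both strands. The positions are chr2:58357709-58358008, minus strand for Acvr1c, chr16:20732877-20733176, plus strand for Chrd, chr9:64022010-64022309, minus strand for Smad6 and chr7:25686752-25687051, plus strand for Tgfb1.
Acvr1c: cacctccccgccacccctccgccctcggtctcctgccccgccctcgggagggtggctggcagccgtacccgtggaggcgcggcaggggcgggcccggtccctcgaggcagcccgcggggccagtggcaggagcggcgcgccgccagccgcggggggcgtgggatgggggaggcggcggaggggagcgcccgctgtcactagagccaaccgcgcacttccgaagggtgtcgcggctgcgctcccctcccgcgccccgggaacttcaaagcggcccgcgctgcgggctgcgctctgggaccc
Chrd: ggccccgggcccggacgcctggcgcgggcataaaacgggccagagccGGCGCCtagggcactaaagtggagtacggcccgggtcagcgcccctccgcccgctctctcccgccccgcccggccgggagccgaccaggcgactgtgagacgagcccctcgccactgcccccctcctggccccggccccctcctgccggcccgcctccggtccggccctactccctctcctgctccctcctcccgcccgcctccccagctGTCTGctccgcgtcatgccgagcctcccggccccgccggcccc
Smad6: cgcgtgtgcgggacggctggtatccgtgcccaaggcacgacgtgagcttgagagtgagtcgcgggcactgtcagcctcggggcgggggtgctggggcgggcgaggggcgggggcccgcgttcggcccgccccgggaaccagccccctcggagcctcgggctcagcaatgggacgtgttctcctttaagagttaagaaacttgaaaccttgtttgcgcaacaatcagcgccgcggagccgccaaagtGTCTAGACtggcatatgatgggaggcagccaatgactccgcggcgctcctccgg
Tgfb1: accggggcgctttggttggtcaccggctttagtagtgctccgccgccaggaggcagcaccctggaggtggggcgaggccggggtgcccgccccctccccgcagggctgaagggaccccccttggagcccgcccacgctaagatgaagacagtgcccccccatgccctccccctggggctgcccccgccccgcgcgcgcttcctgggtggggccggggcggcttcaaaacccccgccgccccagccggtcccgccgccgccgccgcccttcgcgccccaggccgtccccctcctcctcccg
The Chrd promoter held 1 SMAD box and 1 GC-rich motif, that of Smad6 held the palindrome, and neither the Acvr1c nor the Tgfb1 window held any of the 3. RefSeq windows were matched to 34 of the 50 members, 42 windows in all. A SMAD box lay in 23 of these 42 windows (54.8%), against 49.6% of 32851 windows of all genes. The GC-rich motif lay in 10 of 42 (23.8%), against 11.9% of all windows, and the member windows were richer in G and C, with a median of 64.7% against 52.7%. The palindrome lay in 1 of 42 member windows and in 0.213% of all windows. Among the 17 windows of members that rose with CR in BMAd-Pnpla2+/+ mice, 8 held a SMAD box, and 13 did among the 22 windows of the other members tested.

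RNA was sequenced to 25282327 to 27475056 read pairs per sample, of which 18898324 to 21665553 were counted on genes without regard to strand. These unstranded counts were used for all 14 samples, because only 4.30% to 4.62% of the gene reads lay on the first strand in 11 samples, whereas 50.1% to 50.5% did in the 3 BMAd-Pnpla2-/- CR samples. The kind of library and that group cannot be told apart, which touches every comparison with BMAd-Pnpla2-/- CR. Pnpla2 itself lay between 176 and 305 CPM (counts scaled to library size, with TMM factors) in BMAd-Pnpla2+/+ AL and 509 and 1029 under CR, against 133 and 172 in BMAd-Pnpla2-/- AL and 180 and 271 under CR. It was lower in BMAd-Pnpla2-/- than in BMAd-Pnpla2+/+ mice under CR (log2 fold change -1.91 ± 0.26 (SE), adjusted p = 0.0387, edgeR). In AL mice edgeR called 0 of 17494 genes between genotypes, so Pnpla2 did not pass there. The groups did not overlap under either diet, though they came close in AL. Adipocyte markers were present in every sample, with Plin1 between 26.5 and 642 CPM. Replicates 2 and 3 of BMAd-Pnpla2+/+ CR stood apart from the other samples in their cell type markers, as given further on, and counts of calls are given with and without them.

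CR raised many genes of this pathway in control mice. Of the 49 members tested, 23 rose (46.9%) and 3 fell (6.12%) in BMAd-Pnpla2+/+ mice, where of all 17494 genes tested 15% rose and 10.9% fell. Past both of the study's criteria, which also ask for a log2 fold change beyond 1 in size, were 14 members higher and 1 lower, against 7.26% and 1.93% of all genes. The median log2 fold change was 0.66 over the members and 0.00 over all genes. In BMAd-Pnpla2-/- mice, 8 members rose (16.3%) and 1 fell (2.04%), where 6.01% of all genes rose and 5.57% fell. There, 6 members were past both criteria and all 6 were higher, against 2.59% of all genes higher and 0.926% lower, with a median of 0.36 for the members and 0.05 for all genes. A gene is said to have risen or fallen below only where its adjusted p in edgeR's quasi-likelihood test was under 0.05, adjusted over all 17494 genes.

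**Figure D1:**
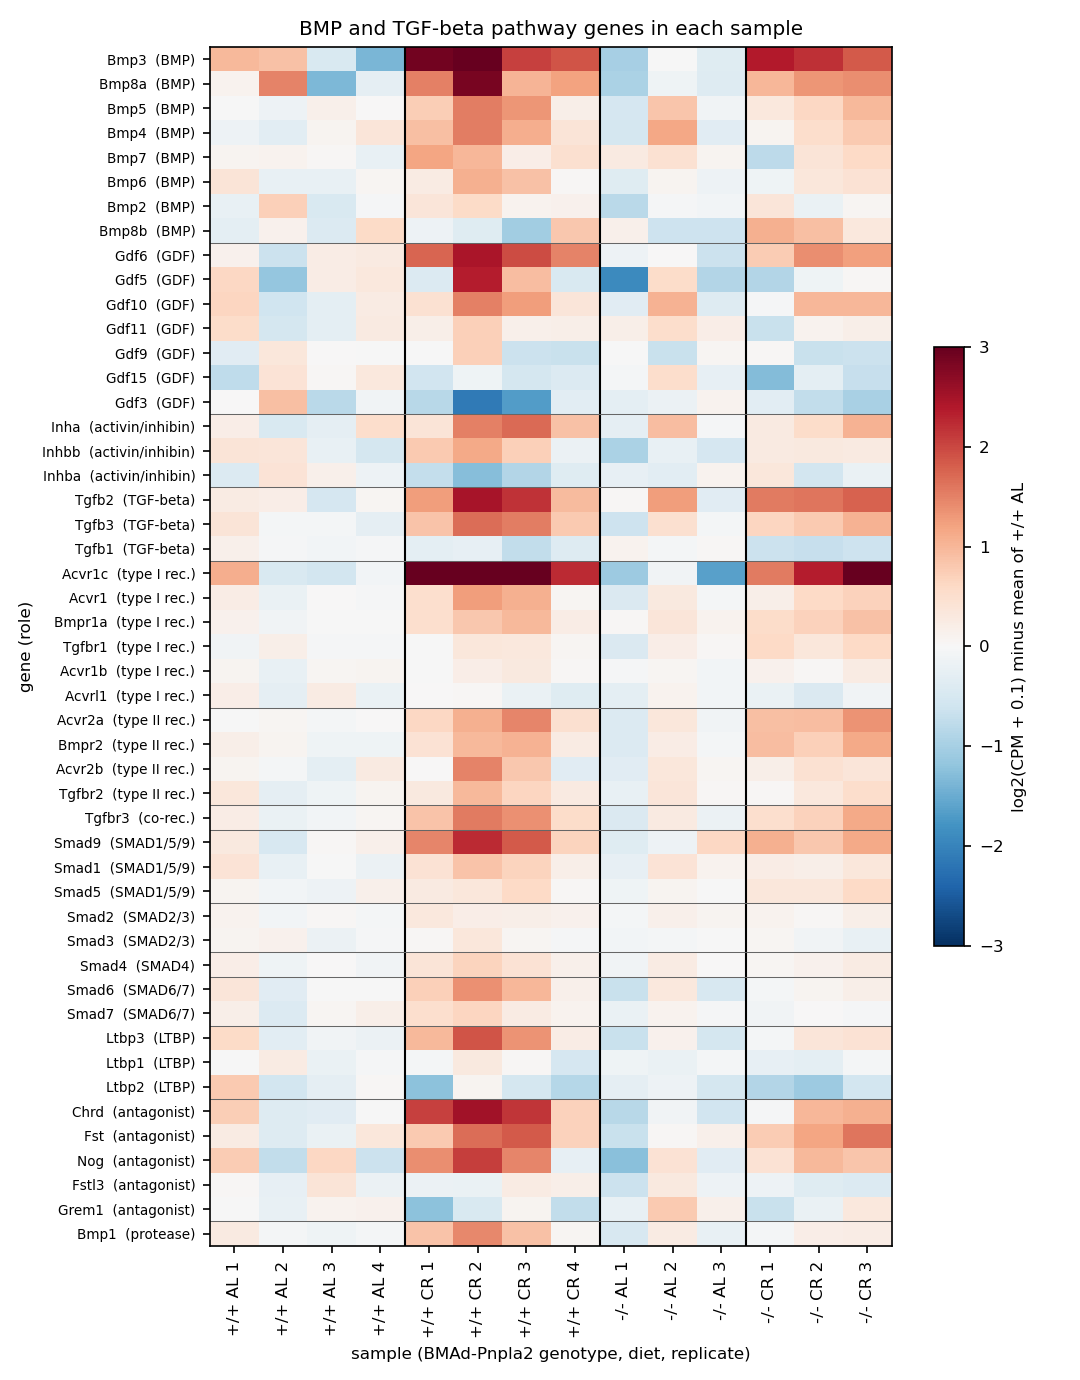
Level of the 49 members tested (rows, by role) in each of the 14 samples (columns), as log2(CPM + 0.1) minus the mean of the 4 BMAd-Pnpla2+/+ AL samples, red for higher and blue for lower. Replicates 2 and 3 of BMAd-Pnpla2+/+ CR hold the strongest red over the most rows, and Tgfb1 is blue in all 7 CR samples.

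The calls in control mice leaned on some samples. Of the 23 members that rose, 17 had their highest BMAd-Pnpla2+/+ CR value in replicate 2 and 6 in replicate 3, and 21 had their lowest in replicate 4. Without replicates 2 and 3 of BMAd-Pnpla2+/+ CR, a check chosen after the data were seen, 3 members rose and none fell, at a median log2 fold change of 0.31. Those 3 were Acvr1c, Bmp3 and Gdf6, and every one of the 26 members called with all samples kept its direction. The other 23 had adjusted p of 0.0795 (Tgfb1) to 0.459 (Acvr1). In that fit with 2 BMAd-Pnpla2+/+ CR samples left, 2.35% of all genes were called, against 26% with all samples. In the same fit, 12 members rose and 1 fell in BMAd-Pnpla2-/- mice, where 16.7% of all genes were called, against 11.6% with all samples. Among the 12 were Tgfb2, Tgfb3, Smad5 and Bmpr1a, which had not passed there with all samples. Leaving out any 1 of the 14 samples kept 13 of the 26 calls in every fit, while the number that rose was 15 without AL replicate 2 or 4, 13 without AL replicate 3, 14 without CR replicate 2 and 13 without CR replicate 3. In those fits that lowered the number, 12.7% to 19.3% of all genes were called. Without CR replicate 4, 31 members rose and 34.2% of all genes were called. In BMAd-Pnpla2-/- mice, of the 8 that rose, 6 had their highest CR value in replicate 3 and 7 their highest AL value in replicate 2. Without AL replicate 1, AL replicate 3 or CR replicate 3 of BMAd-Pnpla2-/-, 1 member rose, Acvr1c, and without CR replicate 2, 5 did. Of all genes, 2.46%, 2.83%, 1.38% and 4.54% were called in those fits, in that order, against 11.6% with all samples.

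Among the BMP ligands, 4 of 8 rose in BMAd-Pnpla2+/+ mice and none fell, with a median log2 fold change of 0.91. Bmp3 (chr5:98854415-98884396, plus strand of GRCm38 as annotated by GENCODE M21, like all gene positions below) encodes an atypical BMP that opposes the osteogenic ones. It had 2.84, 2.67, 0.992 and 0.481 CPM in BMAd-Pnpla2+/+ AL replicates 1 to 4 and 11.2, 18.3, 6.13 and 5.51 under CR, and 0.661, 1.39 and 1.07 in BMAd-Pnpla2-/- AL replicates 1 to 3 and 7.79, 6.77 and 5.32 under CR. All 7 CR samples lay above all 7 AL samples. Bmp3 rose in both genotypes (log2 fold change 2.56 ± 0.50 (SE), adjusted p = 0.00522 in BMAd-Pnpla2+/+, and 2.66 ± 0.61 (SE), adjusted p = 0.019 in BMAd-Pnpla2-/-).

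Bmp4 (chr14:46383520-46390669, minus strand) and Bmp5 (chr9:75775364-75900310, plus strand) encode BMPs that promote bone formation. Bmp4 had 12.8, 11.4, 14.9 and 18.3 CPM in BMAd-Pnpla2+/+ AL and 26.6, 41.4, 30 and 18.6 under CR. The BMAd-Pnpla2-/- samples had 9.75, 31.8 and 11.1 CPM in AL and 14.9, 20.5 and 24.5 in CR. In control mice every CR sample lay above every AL sample, by little between AL replicate 4 and CR replicate 4, whereas in BMAd-Pnpla2-/- mice AL replicate 2 was the highest of all 6. Bmp4 rose in BMAd-Pnpla2+/+ mice (log2 fold change 1.02 ± 0.35 (SE), adjusted p = 0.0467) and had 0.19 ± 0.40 (SE), adjusted p = 0.802 in BMAd-Pnpla2-/- mice. Bmp5 had 8.32, 7.54, 9.45 and 8.5 CPM in BMAd-Pnpla2+/+ AL and 14.2, 24.6, 21.2 and 9.52 under CR, again with no overlap. Its log2 fold change was 1.04 ± 0.31 (SE), adjusted p = 0.0278 in BMAd-Pnpla2+/+ and 0.48 ± 0.36 (SE), adjusted p = 0.402 in BMAd-Pnpla2-/- mice, where AL samples had 5.89, 15 and 7.77 CPM and CR samples 10.5, 13 and 16.7. The gene Gm26903 on the other strand overlaps 46.66% of the exon bases of Bmp5, and counting by strand gave a log2 fold change of 1.02 in BMAd-Pnpla2+/+ mice (adjusted p = 0.0314).

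Bmp8a (chr4:123312645-123343252, minus strand), known for roles in germ cells and in brown fat, was scarce. Its values were 1.03, 2.83, 0.313 and 0.769 CPM in BMAd-Pnpla2+/+ AL and 2.88, 7.4, 2.03 and 2.3 under CR, where replicate 2 of each diet was the highest and the diets overlapped. Values of 0.441, 0.854 and 0.697 CPM in BMAd-Pnpla2-/- AL and 1.97, 2.5 and 2.63 under CR did not overlap. The change passed in BMAd-Pnpla2+/+ (log2 fold change 1.57 ± 0.54 (SE), adjusted p = 0.0487) and not in BMAd-Pnpla2-/- mice (1.83 ± 0.68 (SE), adjusted p = 0.0942). Bmp6, a BMP that drives hepcidin expression in liver, was the most abundant BMP per length, at 12.2 CPM per kilobase of exon on average. It had 52.7, 34.4, 34.4 and 42.2 CPM in BMAd-Pnpla2+/+ AL, 47.6, 84.1, 73.8 and 41.4 under CR, 31.1, 42.8 and 36.4 in BMAd-Pnpla2-/- AL and 37, 51.4 and 54.3 under CR. The diets overlapped in both genotypes, and Bmp6 did not pass (0.59 ± 0.23 (SE), adjusted p = 0.0669 in BMAd-Pnpla2+/+, 0.37 ± 0.26 (SE), adjusted p = 0.374 in BMAd-Pnpla2-/-). Bmp2, Bmp7 and Bmp8b did not pass in either genotype, with log2 fold changes of 0.24, 0.79 and -0.13 in BMAd-Pnpla2+/+ mice and 0.36, -0.10 and 1.33 in BMAd-Pnpla2-/- mice. Bmp8b is uncertain, since it had only 120 unstranded counts over all 14 samples, 3 to 17 in any sample. Counted by strand, the 11 stranded samples held 123 reads on its own strand and 1791 (93.6%) on the other. Most of the latter were not among the unstranded counts used here.

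The Bmp3 call in BMAd-Pnpla2+/+ mice held without any 1 sample and without replicates 2 and 3 of BMAd-Pnpla2+/+ CR together (log2 fold change 2.27, adjusted p = 0.0461, edgeR). The Bmp3 call in BMAd-Pnpla2-/- mice was lost without AL replicate 1, AL replicate 3 or CR replicate 3, at adjusted p of 0.0512 to 0.0755. The Bmp5 call in BMAd-Pnpla2+/+ mice was lost without any 1 of the 4 AL samples or CR replicates 2 and 3 (0.0515 to 0.082), and that of Bmp4 without those, CR replicate 1 or BMAd-Pnpla2-/- CR replicate 2 (0.0543 to 0.127). The Bmp8a call held only in the fits that left out BMAd-Pnpla2+/+ AL replicate 2 or CR replicate 4, and was lost in the other 12 (0.0524 to 0.184).

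Among the GDF ligands, Gdf6 rose in both genotypes. Gdf6 (chr4:9844372-9862345, plus strand) encodes a BMP-like ligand of joint and skull development. It had 1.17, 0.642, 1.25 and 1.3 CPM in BMAd-Pnpla2+/+ AL against 3.75, 6.2, 4.42 and 3.16 under CR, and 0.937, 1.07 and 0.643 in BMAd-Pnpla2-/- AL against 1.87, 2.93 and 2.63 under CR. All CR samples lay above all AL samples in each genotype. Its log2 fold change was 2.00 ± 0.28 (SE), adjusted p = 0.00122 in BMAd-Pnpla2+/+ and 1.48 ± 0.34 (SE), adjusted p = 0.0178 in BMAd-Pnpla2-/- mice. Gdf3 (chr6:122605403-122610087, minus strand), a ligand that can inhibit BMPs and is expressed in adipose tissue, moved the other way in control mice. It had 2.55, 4.81, 1.41 and 2.35 CPM in BMAd-Pnpla2+/+ AL and 1.39, 0.509, 0.722 and 2.03 under CR, with the lowest values in CR replicates 2 and 3 and the diets overlapping. Gdf3 fell in BMAd-Pnpla2+/+ mice (log2 fold change -1.26 ± 0.42 (SE), adjusted p = 0.0406). Values were 2.04, 2.24 and 2.73 CPM in BMAd-Pnpla2-/- AL and 2.03, 1.49 and 1.24 under CR, with a log2 fold change of -0.56 ± 0.48 (SE), adjusted p = 0.475.

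Gdf10, a ligand related to BMP3, was the most abundant GDF per length, at 14.7 CPM per kilobase. It had 81.8, 34.4, 42.1 and 61.1 CPM in BMAd-Pnpla2+/+ AL and 70.7, 148, 123 and 67 under CR, with 40.9, 107 and 39.6 in BMAd-Pnpla2-/- AL and 50.9, 104 and 103 under CR. The diets overlapped in both genotypes and Gdf10 did not pass (0.90 ± 0.39 (SE), adjusted p = 0.105 in BMAd-Pnpla2+/+ mice, 0.46 ± 0.45 (SE), adjusted p = 0.537 in BMAd-Pnpla2-/- mice). Gdf5, Gdf9, Gdf11 and Gdf15 did not pass in either genotype, with log2 fold changes from -0.47 (Gdf15, a stress-induced hormone that lowers food intake) to 1.07 (Gdf5) in BMAd-Pnpla2+/+ mice and from -0.83 (Gdf15) to 0.16 (Gdf5) in BMAd-Pnpla2-/- mice. The Gdf6 call in BMAd-Pnpla2+/+ mice held in every fit that left out 1 sample and without CR replicates 2 and 3 together (1.65, adjusted p = 0.0206). That in BMAd-Pnpla2-/- mice was lost without AL replicate 1 or 3 or CR replicate 2 or 3 (0.0593 to 0.0781), and the Gdf3 call without BMAd-Pnpla2+/+ AL replicate 1, 2 or 4, CR replicate 2 or 3, or BMAd-Pnpla2-/- CR replicate 2 (0.054 to 0.14).

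Of the 3 activin and inhibin subunits, 1 rose and 1 fell in control mice. Inhba (chr13:16011851-16031621, plus strand) encodes the subunit of activin A and was the most abundant of the group, at 5.19 CPM per kilobase. It had 29.1, 51.7, 43.2 and 34.9 CPM in BMAd-Pnpla2+/+ AL and 23.6, 15.9, 21 and 30.2 under CR, where only CR replicate 4 reached into the AL range. Inhba fell in BMAd-Pnpla2+/+ mice (log2 fold change -0.81 ± 0.23 (SE), adjusted p = 0.0251). Values of 32.8, 30.9 and 42.1 CPM in BMAd-Pnpla2-/- AL and 49, 26.4 and 33.7 under CR were widely overlapping, with a log2 fold change of 0.05 ± 0.27 (SE), adjusted p = 0.932. Inha (chr1:75507077-75510366, plus strand), the subunit that turns an activin into the antagonist inhibin, had 1.42, 0.856, 0.992 and 1.78 CPM in BMAd-Pnpla2+/+ AL and 1.63, 3.65, 4.2 and 2.3 under CR, with CR replicate 1 inside the AL range. It rose in BMAd-Pnpla2+/+ mice (log2 fold change 1.22 ± 0.37 (SE), adjusted p = 0.029) and not in BMAd-Pnpla2-/- mice, where AL samples had 0.992, 2.4 and 1.18 CPM and CR samples 1.49, 1.81 and 2.63 (0.38 ± 0.43 (SE), adjusted p = 0.602). Inhbb, the subunit of activin B, did not pass in BMAd-Pnpla2+/+ (0.65 ± 0.27 (SE), adjusted p = 0.0829) or BMAd-Pnpla2-/- mice (0.83 ± 0.31 (SE), adjusted p = 0.0985). Both calls were lost without BMAd-Pnpla2+/+ AL replicate 2 or 3 or CR replicate 2 or 3, at adjusted p of 0.0535 to 0.0728 for Inhba and 0.0758 to 0.0961 for Inha.

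The 3 TGF-beta isoforms did not move together. Tgfb1 (chr7:25687002-25705077, plus strand), the isoform of hematopoietic cells, platelets and bone matrix, was the most abundant of all 50 members, at 109 CPM per kilobase over the 14 samples, and the next, the receptor Acvrl1, had 26.4. Tgfb1 had 708, 629, 602 and 627 CPM in BMAd-Pnpla2+/+ AL and 523, 544, 384 and 487 under CR, and 694, 618 and 660 in BMAd-Pnpla2-/- AL and 411, 398 and 418 under CR. All 7 CR samples lay below all 7 AL samples. It fell in both genotypes (log2 fold change -0.41 ± 0.11 (SE), adjusted p = 0.0171 in BMAd-Pnpla2+/+, and -0.69 ± 0.12 (SE), adjusted p = 0.00944 in BMAd-Pnpla2-/-), and both calls held in each of the 14 fits that left out 1 sample. Without BMAd-Pnpla2+/+ CR replicates 2 and 3 together the log2 fold change in BMAd-Pnpla2+/+ mice was -0.34 (adjusted p = 0.0795).

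Tgfb2 (chr1:186622792-186705989, minus strand) and Tgfb3 (chr12:86056745-86079041, minus strand), isoforms better known from stromal and mesenchymal tissue, rose in control mice. Tgfb2 had 2.01, 1.93, 1.15 and 1.73 CPM in BMAd-Pnpla2+/+ AL and 4.13, 9.71, 7.8 and 3.32 under CR, and Tgfb3 had 11.1, 8.13, 8.19 and 7.02 CPM in AL and 15.5, 27.3, 24.7 and 14.7 in CR. For both genes each CR sample was above each AL sample, with the highest values in CR replicates 2 and 3. Tgfb2 rose by a log2 fold change of 1.87 ± 0.39 (SE), adjusted p = 0.00617, and Tgfb3 by 1.26 ± 0.25 (SE), adjusted p = 0.00552. Tgfb2 had 1.71, 4.11 and 1.29 CPM in BMAd-Pnpla2-/- AL and 5.12, 5.28 and 5.97 under CR (1.20 ± 0.44 (SE), adjusted p = 0.0888). Tgfb3 had 5.45, 11.9 and 8.09 CPM in BMAd-Pnpla2-/- AL and 13.3, 14.6 and 17.5 under CR (0.83 ± 0.29 (SE), adjusted p = 0.0791). Diets did not overlap for either gene in BMAd-Pnpla2-/- mice, but neither passed. Both calls in BMAd-Pnpla2+/+ mice held without any 1 sample, and neither held without CR replicates 2 and 3 together (Tgfb2 at 1.13, adjusted p = 0.12, and Tgfb3 at 0.81, adjusted p = 0.102). In that last fit both genes passed in BMAd-Pnpla2-/- mice, Tgfb2 at 1.20 (adjusted p = 0.0375) and Tgfb3 at 0.83 (adjusted p = 0.0368, edgeR). They also passed there without BMAd-Pnpla2-/- AL replicate 2, at 1.86 (adjusted p = 0.0242) and 1.15 (adjusted p = 0.0344).

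**Figure D2:**
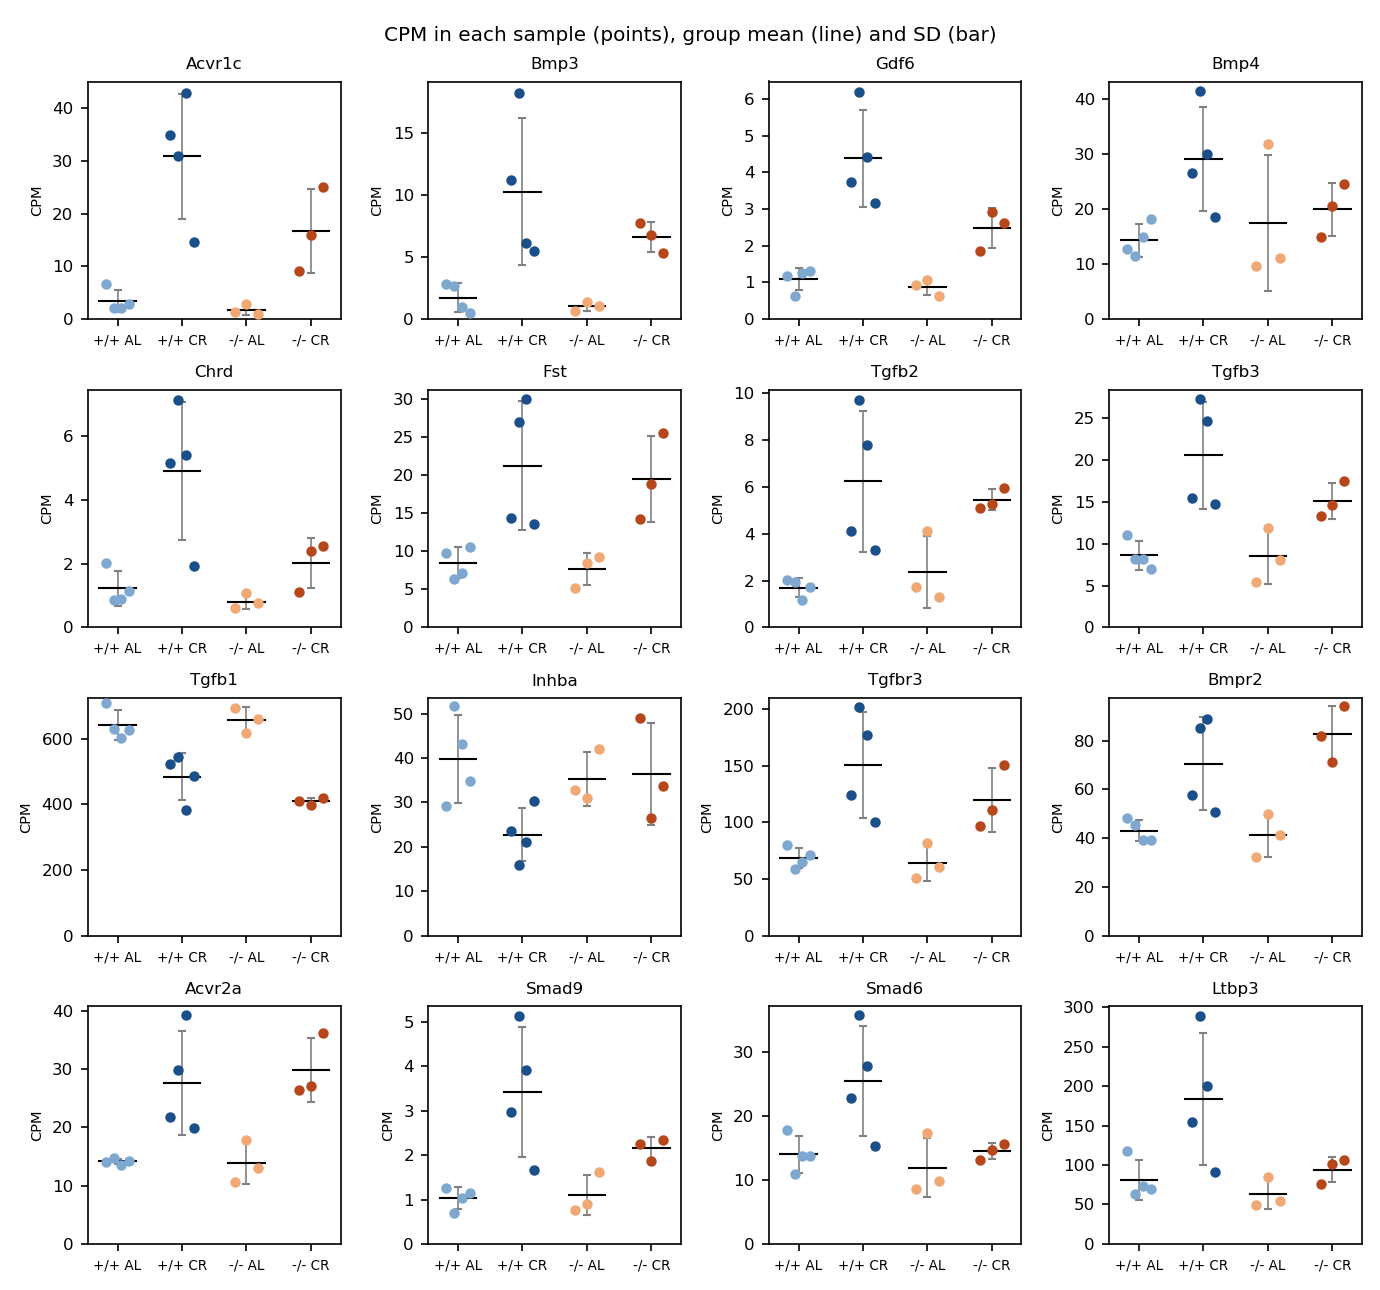
CPM of 16 members in each sample (points) with the group mean (line) and SD (bar), n = 4 for the BMAd-Pnpla2+/+ groups and n = 3 for the BMAd-Pnpla2-/- groups; each axis starts at 0. CR points lie above AL points for Acvr1c, Bmp3 and Gdf6 in both genotypes, and below them for Tgfb1.

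Latent TGF-beta binding proteins tether TGF-beta to the matrix. Ltbp3 (chr19:5740904-5758532, plus strand), a member needed for normal bone growth, was the most abundant per length, at 12.1 CPM per kilobase. It had 118, 63.4, 73.7 and 69.5 CPM in BMAd-Pnpla2+/+ AL and 154, 289, 200 and 91.3 under CR, where CR replicate 4 lay below AL replicate 1. Ltbp3 rose in BMAd-Pnpla2+/+ mice (log2 fold change 1.18 ± 0.31 (SE), adjusted p = 0.0174). The BMAd-Pnpla2-/- values were 49.7, 85.4 and 54.3 CPM in AL and 75.8, 101 and 106 in CR, with overlap (0.58 ± 0.36 (SE), adjusted p = 0.306). Ltbp1 and Ltbp2 did not pass in either genotype (Ltbp1 at -0.04 in BMAd-Pnpla2+/+ against -0.07 in BMAd-Pnpla2-/- mice, Ltbp2 at -0.64 and -0.52). Ltbp4 is not in the matrix and so is no member, but the counts of each sample hold it, at 39.9 to 72 CPM in BMAd-Pnpla2+/+ AL, 74.5 to 218 in BMAd-Pnpla2+/+ CR, 27.2 to 67.3 in BMAd-Pnpla2-/- AL and 69.9 to 143 in BMAd-Pnpla2-/- CR. In a fit of all genes in those counts, 17671 tested, Ltbp4 rose in BMAd-Pnpla2+/+ mice (log2 fold change 1.58 ± 0.40 (SE), adjusted p = 0.0155) and had 1.34 ± 0.46 (SE) in BMAd-Pnpla2-/- mice (adjusted p = 0.0753). The symbols Bmp10, Bmp15, Gdf1, Gdf2 and Gdf7 are not in the matrix either, and had 0 to 11 counts over all samples. The Ltbp3 call held without any 1 sample, and without CR replicates 2 and 3 together it was at 0.60 (adjusted p = 0.282).

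The secreted antagonists bind ligands and keep them from their receptors, and 2 of the 5 rose in control mice. Chrd (chr16:20733127-20742384, plus strand), chordin, binds BMPs. It had 2.01, 0.856, 0.887 and 1.15 CPM in BMAd-Pnpla2+/+ AL and 5.14, 7.12, 5.41 and 1.93 under CR, where CR replicate 4 fell just below AL replicate 1 and the other CR samples were far above. It had 0.606, 1.07 and 0.75 CPM in BMAd-Pnpla2-/- AL and 1.12, 2.4 and 2.54 under CR, where CR replicate 1 was barely above AL replicate 2. Chrd rose in BMAd-Pnpla2+/+ mice (log2 fold change 1.99 ± 0.40 (SE), adjusted p = 0.00547) and did not pass in BMAd-Pnpla2-/- mice (1.31 ± 0.50 (SE), adjusted p = 0.0984). Fst (chr13:114452290-114458951, minus strand), follistatin, binds activins. It had 9.84, 6.36, 7.2 and 10.6 CPM in BMAd-Pnpla2+/+ AL and 14.4, 27, 30 and 13.6 under CR, and 5.23, 8.48 and 9.22 in BMAd-Pnpla2-/- AL and 14.2, 18.9 and 25.5 under CR. Neither genotype had overlapping diets, and Fst rose in both (log2 fold change 1.32 ± 0.30 (SE), adjusted p = 0.0087 in BMAd-Pnpla2+/+, and 1.35 ± 0.34 (SE), adjusted p = 0.0262 in BMAd-Pnpla2-/-).

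Grem1 (gremlin 1, a BMP antagonist of marrow stromal cells) was the most abundant antagonist per length, at 11.6 CPM per kilobase. It had 50.2, 43.5, 54.9 and 56 CPM in BMAd-Pnpla2+/+ AL, 21.5, 37.1, 53.9 and 30.3 under CR, 43.4, 87.9 and 56.6 in BMAd-Pnpla2-/- AL and 32.2, 44.2 and 63.6 under CR. Its CR values were lower on average in both genotypes, overlapped AL in both, and did not pass (-0.52 ± 0.28 (SE), adjusted p = 0.185 in BMAd-Pnpla2+/+, -0.42 ± 0.33 (SE), adjusted p = 0.42 in BMAd-Pnpla2-/-). Nog, noggin, reached 1.26 (adjusted p = 0.0734) and 1.03 (adjusted p = 0.269). Fstl3, a follistatin-like antagonist, had 0.00 and -0.20. Fstl3 shares 47.32% of its exon bases with the opposite-strand gene Prss57, and its values turned on the counting. Unstranded counting left 34 to 79 counts per sample, whereas counting by strand gave 134 to 209 in the 11 samples where it could be used. In the deposited matrix, which holds stranded counts for those 11 samples and unstranded ones for BMAd-Pnpla2-/- CR, Fstl3 was lower in BMAd-Pnpla2-/- CR than in BMAd-Pnpla2-/- AL (log2 fold change -2.04, adjusted p = 3.16e-06), against -0.20 (adjusted p = 0.672) with unstranded counts throughout. The Chrd and Fst calls in BMAd-Pnpla2+/+ mice held without any 1 sample, and were at 1.52 (adjusted p = 0.0886) and 0.72 (adjusted p = 0.158) without CR replicates 2 and 3 together. That of Fst in BMAd-Pnpla2-/- mice was lost without AL replicate 1 or 3 or CR replicate 2 or 3 (0.0593 to 0.11).

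The type I receptors gave the largest change of any member. Acvr1c (chr2:58267453-58357895, minus strand) encodes the activin receptor-like kinase of adipocytes, which binds activin B and GDF3 and is known to restrain lipolysis. It had 6.61, 2.19, 2.04 and 2.88 CPM in BMAd-Pnpla2+/+ AL and 34.9, 31, 43 and 14.7 under CR, and 1.38, 2.83 and 0.911 in BMAd-Pnpla2-/- AL and 9.23, 16 and 25 under CR. The lowest CR sample of all 7, BMAd-Pnpla2-/- CR replicate 1, was above the highest AL sample, BMAd-Pnpla2+/+ AL replicate 1. Acvr1c rose in both genotypes (log2 fold change 3.17 ± 0.48 (SE), adjusted p = 0.00174 in BMAd-Pnpla2+/+, and 3.29 ± 0.58 (SE), adjusted p = 0.00944 in BMAd-Pnpla2-/-). The calls held in each of the 14 fits that left out 1 sample, and in BMAd-Pnpla2+/+ mice also without CR replicates 2 and 3 together (2.85, adjusted p = 0.0298). Summed adipocyte markers moved alongside, at 664 to 1710 CPM in BMAd-Pnpla2+/+ AL, 1890 to 4690 in BMAd-Pnpla2+/+ CR, 301 to 684 in BMAd-Pnpla2-/- AL and 1210 to 1960 in BMAd-Pnpla2-/- CR, and all 8 of them rose in each genotype. The part of adipocyte content in the Acvr1c result was not tested.

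The other type I receptors changed less. Bmpr1a, the widely expressed BMP receptor, rose in BMAd-Pnpla2+/+ mice from 18.4 to 21.6 CPM in AL to 23.1 to 38.9 in CR (log2 fold change 0.66 ± 0.15 (SE), adjusted p = 0.00848) and did not pass in BMAd-Pnpla2-/- mice (0.54 ± 0.17 (SE), adjusted p = 0.0539), although the diets did not overlap there either. Acvr1, a BMP and activin receptor, rose in BMAd-Pnpla2+/+ mice (log2 fold change 0.79 ± 0.24 (SE), adjusted p = 0.0278) and had 0.55 ± 0.28 (SE), adjusted p = 0.206 in BMAd-Pnpla2-/- mice. Tgfbr1, the TGF-beta type I receptor, did not pass in BMAd-Pnpla2+/+ mice (0.18 ± 0.13 (SE), adjusted p = 0.307). It rose in BMAd-Pnpla2-/- mice, from 46.4, 71.2 and 63.5 CPM in AL to 93.9, 78.6 and 94.7 in CR with no overlap (log2 fold change 0.56 ± 0.15 (SE), adjusted p = 0.03). Acvrl1, a receptor of endothelial cells for BMP9 and BMP10, was the most abundant receptor per length. Its values of 139, 100, 143 and 105 CPM in BMAd-Pnpla2+/+ AL, 122, 124, 104 and 93.2 under CR, 97.3, 129 and 114 in BMAd-Pnpla2-/- AL and 104, 89.5 and 111 under CR overlapped between diets in both genotypes. Acvrl1 had a log2 fold change of -0.14 ± 0.14 (SE), adjusted p = 0.487 in BMAd-Pnpla2+/+ mice and -0.16 ± 0.16 (SE), adjusted p = 0.544 in BMAd-Pnpla2-/- mice, and Acvr1b, an activin receptor, 0.13 and 0.16, neither past the threshold. The Acvr1 call was lost without BMAd-Pnpla2+/+ AL replicate 2, 3 or 4 or CR replicate 2 or 3 (0.0603 to 0.089), and that of Tgfbr1 without BMAd-Pnpla2-/- AL replicate 1 or 3 or CR replicate 1 or 3 (0.0743 to 0.137).

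Among the type II receptors, 3 of 4 rose in BMAd-Pnpla2+/+ mice and 2 of 4 in BMAd-Pnpla2-/- mice. Acvr2a (chr2:48814109-48903269, plus strand), a receptor of activins and BMPs, had 14.1, 14.7, 13.6 and 14.2 CPM in BMAd-Pnpla2+/+ AL, a spread far smaller than that of BMAd-Pnpla2+/+ CR, at 21.7, 29.8, 39.3 and 19.8. The BMAd-Pnpla2-/- mice had 10.7, 17.8 and 13.1 CPM in AL and 26.4, 27 and 36.2 in CR. Each CR sample exceeded each AL sample of its genotype. Acvr2a rose in both (log2 fold change 0.97 ± 0.21 (SE), adjusted p = 0.00733 in BMAd-Pnpla2+/+, and 1.11 ± 0.24 (SE), adjusted p = 0.015 in BMAd-Pnpla2-/-). Orc4 on the other strand overlaps 7.84% of its exon bases, and 12.2% of its strand-assigned reads in the 11 stranded samples lay on that strand. Counting by strand gave 0.97 ± 0.24 (SE) in BMAd-Pnpla2+/+ mice (adjusted p = 0.019).

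Bmpr2 (chr1:59763400-59879014, plus strand), the BMP type II receptor, had 48.2, 45.4, 39.4 and 39.4 CPM in BMAd-Pnpla2+/+ AL and 57.7, 85, 88.8 and 50.9 under CR, and 32.3, 50.1 and 41.3 in BMAd-Pnpla2-/- AL and 82.1, 71.1 and 94.4 under CR. The diets did not overlap in either genotype, and Bmpr2 rose in both (log2 fold change 0.71 ± 0.18 (SE), adjusted p = 0.0156 in BMAd-Pnpla2+/+, and 1.0 ± 0.21 (SE), adjusted p = 0.0142 in BMAd-Pnpla2-/-). Tgfbr2, the TGF-beta type II receptor, was the most abundant of the type II group, at 26.2 CPM per kilobase. It had 223, 147, 162 and 187 CPM in BMAd-Pnpla2+/+ AL and 218, 347, 278 and 213 under CR, with 152, 230 and 182 in BMAd-Pnpla2-/- AL and 181, 221 and 257 under CR, and its diets overlapped. Tgfbr2 rose in BMAd-Pnpla2+/+ mice (log2 fold change 0.56 ± 0.19 (SE), adjusted p = 0.0421) and had 0.23 ± 0.21 (SE), adjusted p = 0.52 in BMAd-Pnpla2-/- mice. Acvr2b did not pass (0.67 and 0.30). Tgfbr3 (chr5:107106570-107289629, minus strand), betaglycan, is a co-receptor that presents TGF-beta2 and inhibin. It had 79.6, 59.2, 64.7 and 71.2 CPM in BMAd-Pnpla2+/+ AL against 124, 202, 177 and 100 under CR, and 50.7, 81.7 and 60.4 in BMAd-Pnpla2-/- AL against 96.7, 111 and 151 under CR, again with no overlap. Tgfbr3 rose in both genotypes (log2 fold change 1.14 ± 0.22 (SE), adjusted p = 0.00513 in BMAd-Pnpla2+/+, and 0.90 ± 0.26 (SE), adjusted p = 0.0394 in BMAd-Pnpla2-/-).

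In BMAd-Pnpla2+/+ mice no call of Acvr2a, Tgfbr3 or Bmpr2 passed without CR replicates 2 and 3 together, at log2 fold changes of 0.55 (adjusted p = 0.117), 0.71 (0.0829) and 0.34 (0.262). The Acvr2a and Tgfbr3 calls held without any 1 sample, that of Bmpr2 in every such fit but the one without CR replicate 3 (adjusted p = 0.0535), and that of Tgfbr2 was lost without AL replicate 2, 3 or 4, CR replicate 2 or 3, BMAd-Pnpla2-/- AL replicate 3 or BMAd-Pnpla2-/- CR replicate 2 (0.0553 to 0.132). Those in BMAd-Pnpla2-/- mice of Acvr2a and Bmpr2 were lost without AL replicate 1 or 3 or CR replicate 3 (0.063 to 0.0729 and 0.0524 to 0.0652), and that of Tgfbr3 without those, CR replicate 2, or BMAd-Pnpla2+/+ AL replicate 3 or 4 (0.0523 to 0.156).

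**Figure D3:**
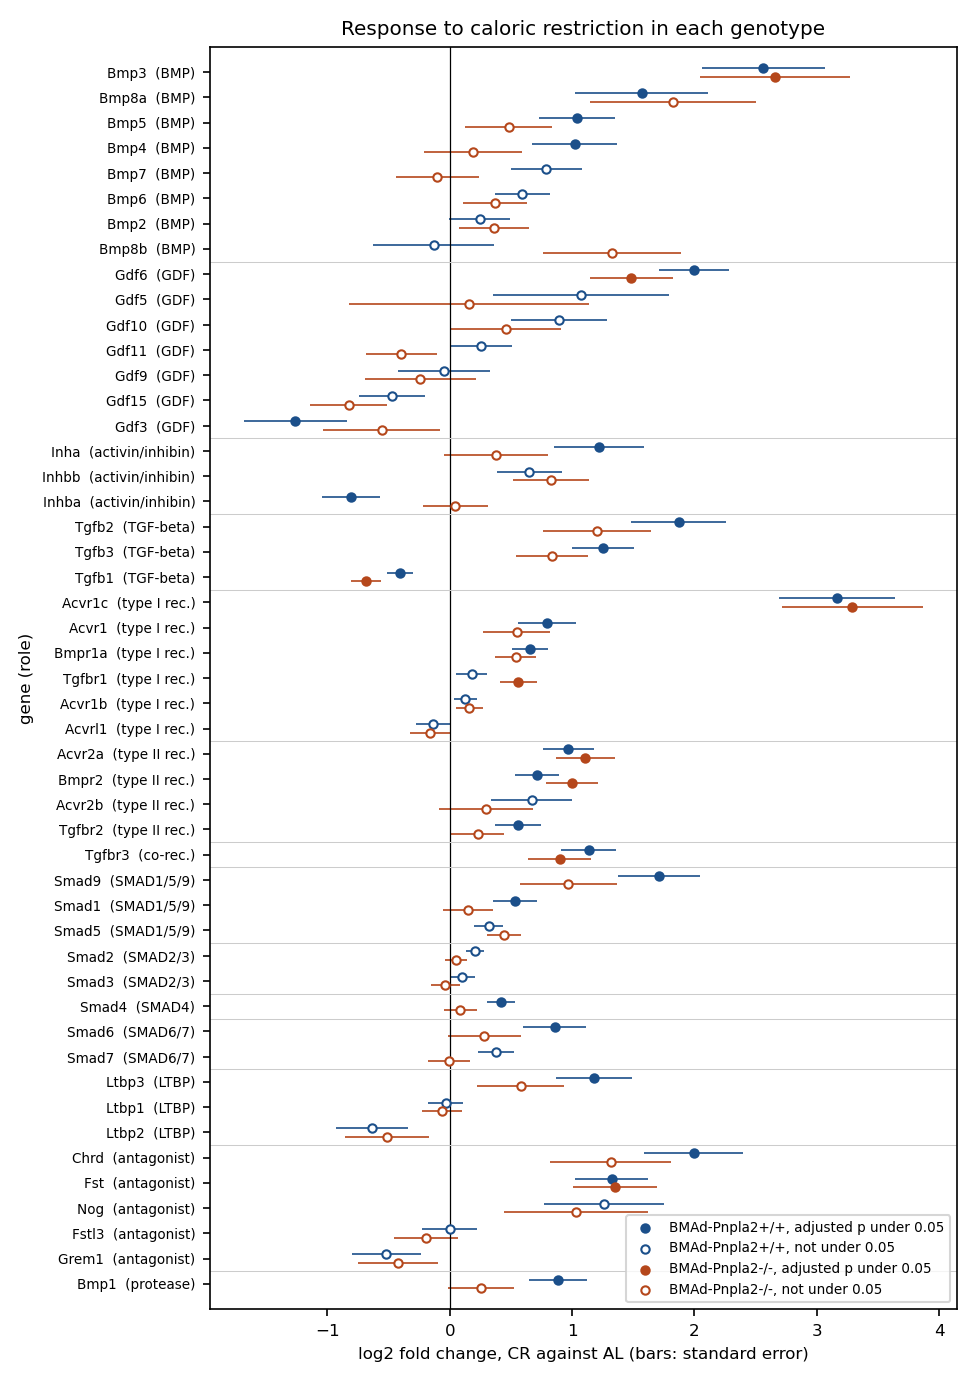
Log2 fold change of CR against AL (x axis) for the 49 members tested, grouped by role, in BMAd-Pnpla2+/+ (blue) and BMAd-Pnpla2-/- mice (orange), with standard errors; filled points have an adjusted p under 0.05 in edgeR. Acvr1c and Bmp3 lie farthest to the right in both genotypes, and Tgfb1 is the member filled to the left of 0 in both.

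The SMADs of the BMP branch carry BMP signals, and 2 of the 3 rose in control mice. Smad9 (chr3:54755582-54801257, plus strand), the least abundant, had 1.27, 0.695, 1.04 and 1.15 CPM in BMAd-Pnpla2+/+ AL and 2.98, 5.13, 3.92 and 1.66 under CR, and 0.771, 0.907 and 1.61 in BMAd-Pnpla2-/- AL and 2.24, 1.87 and 2.34 under CR. CR samples lay above AL samples within each genotype. Smad9 rose in BMAd-Pnpla2+/+ mice (log2 fold change 1.71 ± 0.34 (SE), adjusted p = 0.00505) and had 0.97 ± 0.40 (SE), adjusted p = 0.124 in BMAd-Pnpla2-/- mice. Smad1 rose slightly in BMAd-Pnpla2+/+ mice (log2 fold change 0.53 ± 0.18 (SE), adjusted p = 0.0418) and had 0.15 ± 0.21 (SE), adjusted p = 0.682 in BMAd-Pnpla2-/- mice. Smad5, the most abundant of this branch at 8.11 CPM per kilobase, had 55.7, 49.8, 47.1 and 58.3 CPM in BMAd-Pnpla2+/+ AL and 63.1, 66.8, 79.7 and 53.5 under CR, with overlap, and 48.1, 55.3 and 52.5 in BMAd-Pnpla2-/- AL and 66.2, 66.3 and 79.5 under CR, without. It just missed the threshold in both (0.32 ± 0.12 (SE), adjusted p = 0.0605 in BMAd-Pnpla2+/+, 0.44 ± 0.14 (SE), adjusted p = 0.0505 in BMAd-Pnpla2-/-).

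In the TGF-beta branch, neither Smad2 nor Smad3 passed. Smad3, the more abundant per length at 10.1 CPM per kilobase, had 59.1, 60.8, 49.2 and 54.2 CPM in BMAd-Pnpla2+/+ AL, 56.6, 70.9, 58 and 54.2 under CR, 52.6, 53.4 and 55.5 in BMAd-Pnpla2-/- AL and 57.6, 52 and 47.8 under CR. These ranges overlapped throughout, with log2 fold changes of 0.10 ± 0.10 (SE), adjusted p = 0.461 in BMAd-Pnpla2+/+ and -0.04 ± 0.12 (SE), adjusted p = 0.869 in BMAd-Pnpla2-/- mice. Smad2 had 0.21 ± 0.08 (SE), adjusted p = 0.0596 and 0.05 ± 0.09 (SE), adjusted p = 0.748. Smad4, the partner shared by both branches, had 88, 69.9, 76.4 and 71.1 CPM in BMAd-Pnpla2+/+ AL and 99.8, 121, 103 and 84.3 under CR, with CR replicate 4 inside the AL range. It rose in BMAd-Pnpla2+/+ mice (log2 fold change 0.42 ± 0.12 (SE), adjusted p = 0.0208). Values of 70.9, 90.3 and 76.7 CPM in BMAd-Pnpla2-/- AL and 78.9, 83.4 and 90.3 under CR gave 0.09 ± 0.13 (SE), adjusted p = 0.714.

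Smad6 and Smad7 are inhibitory SMADs that are themselves induced by the pathway. Smad6 had 17.9, 10.9, 13.7 and 13.7 CPM in BMAd-Pnpla2+/+ AL and 22.9, 35.8, 27.9 and 15.4 under CR, where CR replicate 4 lay below AL replicate 1. It rose in BMAd-Pnpla2+/+ mice (log2 fold change 0.86 ± 0.26 (SE), adjusted p = 0.0284). It had 8.65, 17.3 and 9.92 CPM in BMAd-Pnpla2-/- AL and 13.2, 14.7 and 15.7 under CR (0.28 ± 0.30 (SE), adjusted p = 0.574). Smad7, the more abundant per length at 5.59 CPM per kilobase, had 26.4, 17.6, 24.4 and 26.3 CPM in BMAd-Pnpla2+/+ AL, 33.3, 36.8, 27.7 and 25.1 under CR, 20.3, 25.2 and 22.8 in BMAd-Pnpla2-/- AL and 21.7, 23.4 and 22.9 under CR. Diets overlapped for it in both genotypes and it did not pass (0.38 ± 0.15 (SE), adjusted p = 0.0696 in BMAd-Pnpla2+/+, -0.01 ± 0.17 (SE), adjusted p = 0.988 in BMAd-Pnpla2-/-). Bmp1 is no ligand despite its name but a protease that cleaves procollagen and chordin. It had 68, 54.2, 51.9 and 54.2 CPM in BMAd-Pnpla2+/+ AL and 103, 155, 104 and 59.2 under CR, and 40.5, 67.3 and 48.3 in BMAd-Pnpla2-/- AL and 54.2, 65.4 and 66.7 under CR. It rose in BMAd-Pnpla2+/+ mice (log2 fold change 0.88 ± 0.24 (SE), adjusted p = 0.0183), although CR replicate 4 lay inside the AL range, and had 0.26 ± 0.27 (SE), adjusted p = 0.574 in BMAd-Pnpla2-/- mice.

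The Smad9 call held without any 1 sample, and that of Bmp1 in every such fit but the one without BMAd-Pnpla2+/+ AL replicate 3 (adjusted p = 0.0539). Those of Smad4 and Smad6 were lost without BMAd-Pnpla2+/+ AL replicate 2, 3 or 4 or CR replicate 2 or 3 (0.0509 to 0.0639 and 0.0605 to 0.0882). The Smad1 call was lost in 10 of the 14 fits (0.0505 to 0.126), held only without BMAd-Pnpla2+/+ AL replicate 1, CR replicate 4, or BMAd-Pnpla2-/- AL replicate 1 or 2. Without CR replicates 2 and 3 together, Smad9 was at 1.15 (adjusted p = 0.0938).

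**Figure D4:**
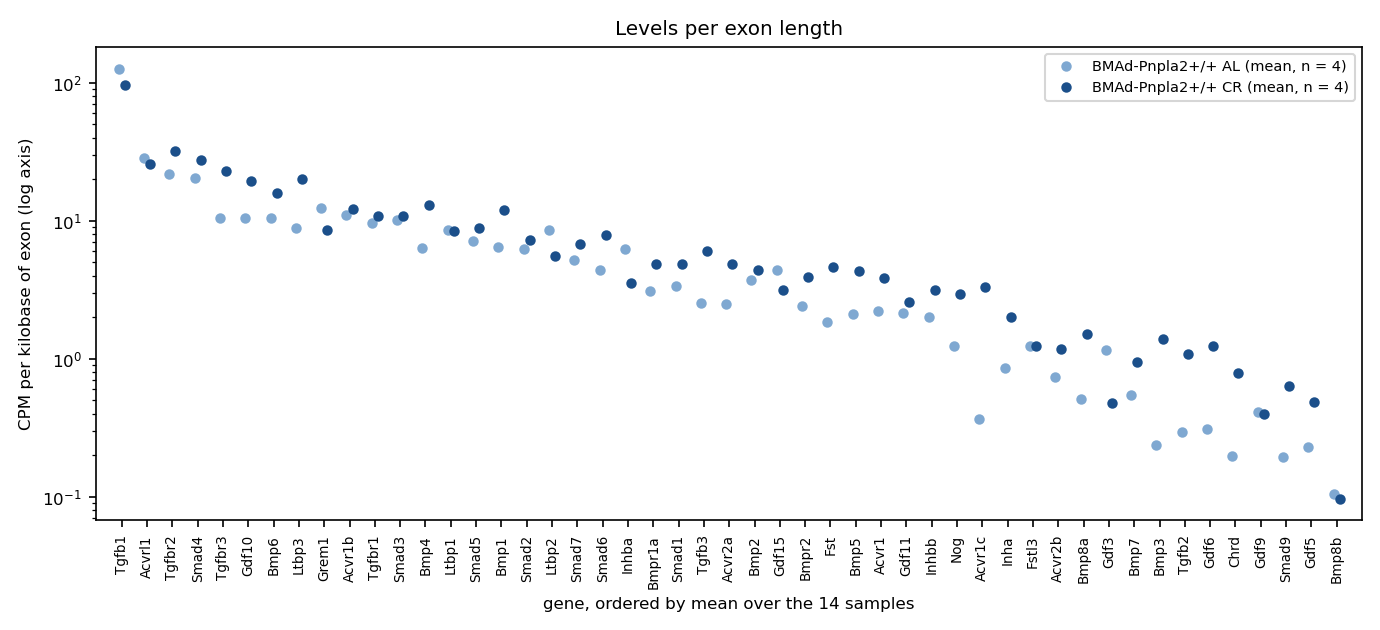
Mean level of the 49 members tested in BMAd-Pnpla2+/+ AL and CR (n = 4 each), in CPM per kilobase of exon on a log axis, in the order of their mean over the 14 samples. Tgfb1 stands above all others in both diets, and the dark CR points lie farthest above the light AL points for Acvr1c.

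Levels can be compared between genes only per length of exon. On that scale the order in BMAd-Pnpla2+/+ AL was led by Tgfb1 at 127 ± 9.06 CPM per kilobase (SD, n = 4), then Acvrl1 at 28.6 ± 5.29, Tgfbr2 at 22 ± 4.04 and Smad4 at 20.6 ± 2.23, where Acvrl1 and Tgfbr2, and Tgfbr2 and Smad4, lay within their SDs of each other, but Acvrl1 and Smad4 did not. The level of Acvr1c in BMAd-Pnpla2+/+ AL, 0.37 ± 0.23, was among the low ones, and under CR it was 3.33. Bmpr1b, the member not tested, stood last.

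Between genotypes, no member passed. In AL mice 0 of 49 members and 0% of all genes were called in either direction by edgeR, with 0 members at an unadjusted p under 0.05, where 694 of all genes were. DESeq2 called 0 members and 19 genes in all, with 1 member at an unadjusted p under 0.05. In AL mice the members' median log2 fold change between genotypes, BMAd-Pnpla2-/- over BMAd-Pnpla2+/+, was -0.06. Acvr1c had the lowest, -1.01 ± 0.56 (SE), adjusted p = 1, from 6.61, 2.19, 2.04 and 2.88 CPM in BMAd-Pnpla2+/+ to 1.38, 2.83 and 0.911 in BMAd-Pnpla2-/- AL samples, which overlapped.

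Under CR, 0 of 49 members passed between genotypes in edgeR, and of all genes 0.00572% were called higher and 0.0114% lower in BMAd-Pnpla2-/- mice, the latter also past both criteria (0.0114%). The fold changes leaned to lower values in BMAd-Pnpla2-/- mice: 39 of 49 were lower in BMAd-Pnpla2-/- CR, at a median log2 fold change of -0.31 against -0.01 over all genes, and 9 members had an unadjusted p under 0.05, as had 4052 of all 17494 genes. Of these 9, Chrd, Bmp1, Smad6, Ltbp3, Gdf6, Smad7 and Smad4 were lower in BMAd-Pnpla2-/- mice (log2 fold changes -1.28, -0.76, -0.81, -0.96, -0.82, -0.44 and -0.28), and Inhba and Tgfbr1 were higher (0.68 and 0.33), with adjusted p of 0.113 to 0.207. The share of members with such a p was below that of all genes, and these 9 were named after their values were seen. For Inhba, BMAd-Pnpla2+/+ CR samples had 23.6, 15.9, 21 and 30.2 CPM and BMAd-Pnpla2-/- CR samples 49, 26.4 and 33.7, which overlapped. DESeq2 called 5 members, all lower in BMAd-Pnpla2-/- CR: Chrd (-1.31), Ltbp3 (-0.99), Smad6 (-0.84), Bmp1 (-0.79) and Smad7 (-0.47), at adjusted p of 0.0309 to 0.05, where it called 9.13% of all genes. edgeR called the same 5 and, higher in BMAd-Pnpla2-/- CR, Inhba when BMAd-Pnpla2+/+ CR replicate 4 was left out, where 12% of all genes were called. In both of these fits the share of members called was close to that of all genes. Without BMAd-Pnpla2+/+ CR replicates 2 and 3, edgeR called 0 members and 0% of all genes. In that fit 6 members had an unadjusted p under 0.05, and the number of all genes with such a p was not taken. The kind of library differs between these groups and cannot be told apart from genotype here.

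The difference between the CR responses of the genotypes was tested directly. No member passed in edgeR, and 0% of all genes did in either direction. 1 member, Inhba, had an unadjusted p under 0.05, with a response 0.85 higher in BMAd-Pnpla2-/- mice on the log2 scale (adjusted p = 0.436). Of all 17494 genes, 1824 had such a p. DESeq2 called 0 members and 60 of all 17494 genes (0.343%), with 2 members at an unadjusted p under 0.05. For members that rose in BMAd-Pnpla2+/+ mice alone in the fit with all samples, among them Chrd, Tgfb2, Tgfb3 and Smad9, a difference between the genotypes was therefore not shown. The differences in response were -0.68 ± 0.64 (SE), adjusted p = 0.705 for Chrd, -0.67 ± 0.58 (SE), adjusted p = 0.678 for Tgfb2, -0.42 ± 0.39 (SE), adjusted p = 0.695 for Tgfb3 and -0.75 ± 0.52 (SE), adjusted p = 0.613 for Smad9. A p that misses the threshold does not show that the responses were alike. Both responses of members are given side by side in the plot of fold changes by role.

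Other genes of the pathway outside these families, 39 of them tested, were looked at in the same fit. In BMAd-Pnpla2+/+ mice 19 rose and 1 fell, where 15% of all genes rose and 10.9% fell, and in BMAd-Pnpla2-/- mice 2 rose and 2 fell, where 6.01% and 5.57% did. Without BMAd-Pnpla2+/+ CR replicates 2 and 3 together, 1 of 40 tested, Atoh8, rose in BMAd-Pnpla2+/+ mice and 1, Nrros, fell, and 9 rose and 2 fell in BMAd-Pnpla2-/- mice. Of all genes in that fit, 1.49% rose and 0.867% fell in BMAd-Pnpla2+/+ mice, and 8.54% and 8.2% did in BMAd-Pnpla2-/- mice. In the fit with all samples 0 of 39 passed between genotypes under CR and 0 of 39 for the difference between the responses. Of the targets of BMP signalling, 4 of 6 tested rose in BMAd-Pnpla2+/+ mice: Atoh8, Id4, Bambi and Id2. Atoh8, a transcription factor, had 4.41, 3.58, 4.75 and 4.28 CPM in BMAd-Pnpla2+/+ AL and 13.4, 24.8, 19.4 and 5.83 under CR (log2 fold change 1.90 ± 0.33 (SE), adjusted p = 0.00296), and 3.69, 4.8 and 3.7 in BMAd-Pnpla2-/- AL and 7.26, 7.14 and 8.85 under CR (0.93 ± 0.38 (SE), adjusted p = 0.12). The diets did not overlap in either genotype. Id1 and Id3, the most widely used readouts of BMP signalling, did not pass, with log2 fold changes of 0.38 and 0.27 in BMAd-Pnpla2+/+ and 0.13 and 0.04 in BMAd-Pnpla2-/- mice. Id2 rose in both genotypes (0.35, adjusted p = 0.0419, and 0.57, adjusted p = 0.0198).

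Of the TGF-beta targets, 1 of 5 rose in each genotype. That gene was Ccn2, connective tissue growth factor, with 16.5, 27.8, 14.7 and 10.2 CPM in BMAd-Pnpla2+/+ AL, 48.1, 78.5, 53.2 and 34.5 under CR, 9.42, 27.3 and 11 in BMAd-Pnpla2-/- AL and 34.7, 50.6 and 46.7 under CR. All 7 CR samples exceeded all 7 AL samples, and the log2 fold changes were 1.63 ± 0.37 (SE), adjusted p = 0.00956 in BMAd-Pnpla2+/+ and 1.47 ± 0.43 (SE), adjusted p = 0.0431 in BMAd-Pnpla2-/- mice. Of 4 further receptors and co-receptors tested all rose in BMAd-Pnpla2+/+ mice and none in BMAd-Pnpla2-/- mice, led by Rgma (1.84 ± 0.33 (SE), adjusted p = 0.00354) and Neo1 (1.63 ± 0.33 (SE), adjusted p = 0.00598), a BMP co-receptor and its partner neogenin, with Rgmb and the endothelial co-receptor Eng lower at 0.86 and 0.71. Of 7 further antagonists 5 rose in BMAd-Pnpla2+/+ mice and none in BMAd-Pnpla2-/- mice, among them the proteoglycan Dcn (1.30) and the BMP antagonist Nbl1 (1.19).

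Of 8 genes of TGF-beta latency and activation, the fibrillins Fbn1 (1.19, adjusted p = 0.0135) and Fbn2 (1.29, adjusted p = 0.0331) rose in BMAd-Pnpla2+/+ mice. Nrros, which anchors latent TGF-beta1 on myeloid cells, fell in both genotypes like Tgfb1, from 241, 194, 215 and 194 CPM in BMAd-Pnpla2+/+ AL to 163, 156, 163 and 151 under CR and from 216, 202 and 221 in BMAd-Pnpla2-/- AL to 151, 152 and 151 under CR. All CR samples lay below all AL samples, with log2 fold changes of -0.41 ± 0.08 (SE), adjusted p = 0.0046 and -0.49 ± 0.09 (SE), adjusted p = 0.00972. Lrrc32, the anchor on platelets and regulatory T cells, fell in BMAd-Pnpla2-/- mice (-0.50 ± 0.15 (SE), adjusted p = 0.0418), with -0.25 ± 0.13 (SE), adjusted p = 0.154 in BMAd-Pnpla2+/+ mice. Of 7 intracellular regulators, Smurf1, Ski and Zfyve9 rose in BMAd-Pnpla2+/+ mice (0.52, 0.57 and 0.62) and none passed in BMAd-Pnpla2-/- mice. Of all these genes, those other than Atoh8, Rgma, Ccn2, Neo1, Dcn, Fbn1, Fbn2 and Nbl1 were named after their values were seen.

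**Figure D5:**
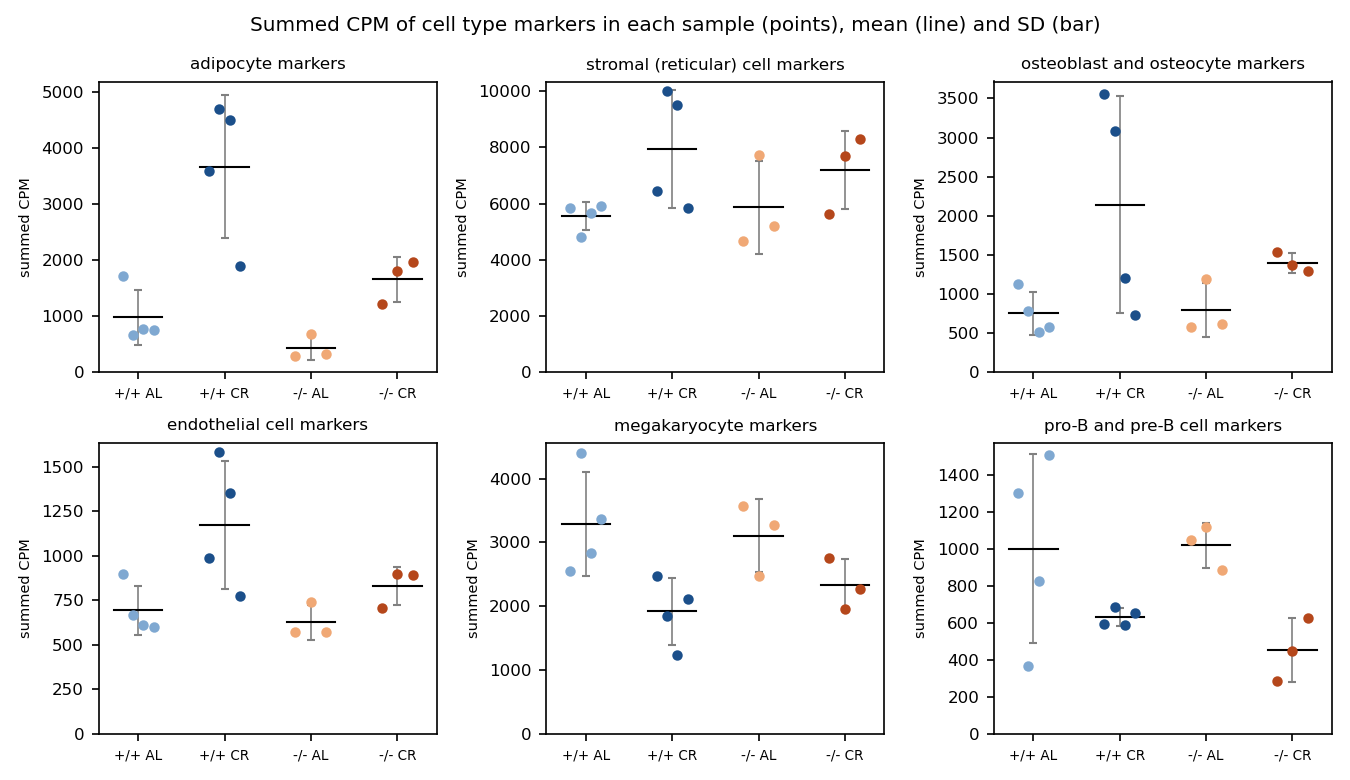
Summed CPM of 6 lists of cell type markers in each sample (points) with the group mean (line) and SD (bar), n = 4 or 3; each axis starts at 0. Adipocyte sums are higher under CR in both genotypes, and the highest stromal and endothelial sums are those of BMAd-Pnpla2+/+ CR replicates 2 and 3.

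Markers of several cell types moved with CR, and so with the members. In BMAd-Pnpla2+/+ mice all 8 adipocyte markers rose, 4 of 8 of stromal reticular cells, 4 of 8 of osteoblasts and osteocytes, 7 of 8 of endothelial cells and 6 of 8 of osteoclasts. In the same mice 6 of 12 markers of pro-B and pre-B cells, 4 of 8 of megakaryocytes, 5 of 8 of neutrophils and 2 of 8 of monocytes and macrophages fell, 1 of the last list rose, and none of 7 erythroid markers passed. In BMAd-Pnpla2-/- mice all 8 adipocyte markers, 1 of 8 stromal and 1 of 8 osteoblast markers rose, 6 of 12 of the B lineage and 1 of 8 monocyte markers fell, and no endothelial, osteoclast, megakaryocyte, neutrophil or erythroid marker passed. Without BMAd-Pnpla2+/+ CR replicates 2 and 3 together, 3 of 8 adipocyte markers and 1 of 8 osteoblast markers rose in BMAd-Pnpla2+/+ mice, 6 of 12 of the B lineage fell, and no stromal, endothelial, osteoclast, megakaryocyte, neutrophil or monocyte marker passed.

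Sums over these lists differed between samples of a group. Stromal sums were 4830 to 5900 CPM in BMAd-Pnpla2+/+ AL, 5830 to 10000 in BMAd-Pnpla2+/+ CR, 4660 to 7740 in BMAd-Pnpla2-/- AL and 5620 to 8280 in BMAd-Pnpla2-/- CR, with 10000 and 9490 in BMAd-Pnpla2+/+ CR replicates 2 and 3 and 5830 in replicate 4. Endothelial sums were 601 to 896, 773 to 1580, 570 to 738 and 706 to 896 CPM, in the same order of groups, and osteoblast sums 511 to 1130, 735 to 3560, 575 to 1190 and 1290 to 1540. Erythroid sums were 9950 and 10200 CPM in BMAd-Pnpla2+/+ CR replicates 2 and 3, and 16700 to 48200 in all other samples. Megakaryocyte sums, 2560 to 4400 CPM in BMAd-Pnpla2+/+ AL and 1240 to 2480 in BMAd-Pnpla2+/+ CR, moved in the direction of Tgfb1, and neutrophil sums, 26000 to 34300 and 12800 to 23600 CPM, did too. In BMAd-Pnpla2-/- mice both overlapped between AL and CR, at 2470 to 3570 against 1950 to 2760 and 28400 to 29400 against 17600 to 28500 CPM. Monocyte and macrophage sums were lower under CR without overlap in both genotypes. They were 4440 to 4810 against 3490 to 3880 CPM in BMAd-Pnpla2+/+ and 4520 to 5350 against 3770 to 4190 in BMAd-Pnpla2-/- mice. Muscle markers, of which 5 of 8 were tested, summed to 35.9 and 129 CPM in BMAd-Pnpla2-/- CR replicates 2 and 3 and to 4.13 to 19.8 elsewhere, and cartilage markers, of which 5 were in the matrix and 3 tested, to 26.2 to 383 CPM. The part of these cell types in the members' results was not tested.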

How the data were processed

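RNA of distal tibial marrow plugs was sequenced with paired ends. Per the submitters' processing notes, reads were checked with FastQC 0.11.9, aligned to mm10 with STAR and tested with DESeq2. The authors deposited raw counts per gene for each sample, unstranded and by strand, and a count matrix. The matrix held reverse-strand counts for 11 samples and unstranded counts for the 3 BMAd-Pnpla2-/- CR samples. The annotation release is not given in the sources used here. GENCODE M21 matched 54349 of 55401 identifiers with their version, all 50 members among them.

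Unstranded counts of the 23441 matrix genes were fitted in edgeR 4.0.16 (R 4.3.3) with TMM normalization, filterByExpr on the 4 groups, group means and robust quasi-likelihood tests, adjusted by Benjamini-Hochberg over 17494 genes. SE was the log2 fold change over the square root of F. The p-values measure the spread between these samples, and no replicates agreed within sampling noise. Scripts were tested on simulated counts. Alternatives were DESeq2 1.42.0, other scalings, no filter, the deposited matrix, reverse-strand counts, all genes of the samples' counts, main effects alone, the compared groups alone, a replicate block and leaving out each sample.

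The members and the lists of other pathway genes and markers were chosen with earlier results of these data known. Values in every sample are given for members past both criteria in any comparison and for the most abundant member per exon length in each role, with other members where their values bear on a comparison. Other pathway genes were named where past both criteria, at most 8 per comparison.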

Additional observations from a re-analysis of the deposited data

Results flagged for a closer look

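In 98 groups of 4 samples, 2 for each of the 49 members tested, the highest or lowest sample was compared with the range of its group, and 4 were set apart from the other 3. Chance does this in about 1 in 20 groups. Acvr1b had 41.6 CPM in BMAd-Pnpla2+/+ AL replicate 2, below 50.8 to 51.8 in the other 3. Bmp1 had 68 CPM in BMAd-Pnpla2+/+ AL replicate 1, above 51.9 to 54.2. Gdf11 had 13.8 CPM in BMAd-Pnpla2+/+ CR replicate 2, above 9.38 to 9.47, and Bmp8a had 7.4 CPM in the same sample, above 2.03 to 2.88.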

How the results depend on the processing

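None of the 35 calls changed direction under any alternative run. The calls in BMAd-Pnpla2+/+ mice were shared as follows with the 26 of the fit described: DESeq2 kept all 26 and made 30, edgeR with DESeq2's size factors kept 26, total counts kept 26, no filter 24, the deposited matrix 24, reverse-strand counts 22, and the compared groups alone 20. In BMAd-Pnpla2-/- mice, 9 of 9 calls were kept by DESeq2, both scalings and the deposited matrix, and 8 without the filter and with the compared groups alone. In BMAd-Pnpla2+/+ mice DESeq2 called 31.7% of all genes, its size factors 26.7%, total counts 25.4%, no filter 18.2% and the deposited matrix 27.7%. Reverse-strand counts called 23.3% there and the compared groups alone 16.3%, against 26% in the fit described. With the compared groups alone, 1 member fell in BMAd-Pnpla2+/+ mice in place of 3. In BMAd-Pnpla2-/- mice, 2 members fell in place of 1 under DESeq2, the deposited matrix and the compared groups alone. Of all genes there, DESeq2 called 17.7%, its size factors 12.3%, total counts 11.8% and the deposited matrix 22.3%. No filter called 7.62% and the compared groups alone 16.2%, against 11.6% in the fit described. Between genotypes under CR, 5 members were lower and 1 was past both criteria under DESeq2, where 9.13% of all genes were called. With the deposited matrix 2 were lower and 2 past both criteria, where 14% of all genes were called. These 2 were Fstl3 (log2 fold change -1.65, adjusted p = 1.3e-05, edgeR) and Bmp5 (-1.30, adjusted p = 0.0159), against -0.34 and -0.38 with unstranded counts throughout. Bmp5 had 378 to 987 counts by strand in BMAd-Pnpla2+/+ CR samples and 178 to 531 unstranded. With that matrix 1 member, Fstl3, was called lower in the difference between responses and was past both criteria, where 3.87% of all genes were called. These calls of Fstl3 and Bmp5 follow from the unequal counting of strands. Otherwise the cause was not tested.

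Without BMAd-Pnpla2+/+ CR replicates 2 and 3 together, 3 members rose, 0 fell and 3 were past both criteria in BMAd-Pnpla2+/+ mice, at a median log2 fold change of 0.31 over the members. Of all genes, 2.35% were called there. In BMAd-Pnpla2-/- mice that fit gave 12 members higher and 1 lower, with 16.7% of all genes called. Leaving out 1 sample at a time gave 13 to 31 members higher, 1 to 3 lower and 8 to 19 past both criteria in BMAd-Pnpla2+/+ mice. Of all genes, 12.7% to 34.2% were called there, the highest of each count of members higher and of all genes without BMAd-Pnpla2+/+ CR replicate 4. In BMAd-Pnpla2-/- mice, with 1.38% to 13.8% of all genes called, leaving out 1 sample gave 1 to 12 higher, 1 lower throughout and 1 to 9 past both criteria. It gave 1 higher without AL replicate 1, AL replicate 3 or CR replicate 3. Between genotypes it gave 0 throughout in AL, and 0 to 1 higher, 0 to 5 lower and 0 to 2 past both criteria under CR, the highest of each without BMAd-Pnpla2+/+ CR replicate 4. For the difference between responses it gave 0 throughout.

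The labels number replicates within groups without saying that a number is shared. Deviations from the group means correlated at -0.37 to 0.33 (median 0.02) over 19 pairs of samples with the same number, so the numbers were not taken to pair samples. With the replicate block, 21 members rose and 2 fell in BMAd-Pnpla2+/+ mice, and 10 rose and 2 fell in BMAd-Pnpla2-/- mice. Of all genes, 24% and 10.3% were called in those comparisons, in that order. Counts were low for Bmp8b, Gdf5 and Gdf9, with 1 to 62 per sample, which limits their precision.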
